A study of Saccharomyces cerevisiae with 16 samples.

Results

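The genes described here are 50 genes of amino acid synthesis in the budding yeast Saccharomyces cerevisiae, taken by their systematic names from the rows of the deposited table. They make up 50 of 11997 features other than spike-ins, and 50 of 5899 nuclear protein-coding genes. By pathway they comprise 6 arginine genes, 4 histidine genes, 10 genes of the branched-chain amino acids, 7 lysine genes, 7 aromatic genes, 3 serine genes, 5 threonine and homoserine genes, 3 proline genes, 2 asparagine genes and 3 genes of ammonium assimilation. All 50 were measured in every library and all 50 passed the filter on low values.

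Yeast makes all of its amino acids from intermediates of central carbon metabolism and ammonium. Many of the genes are activated by Gcn4, a transcription factor whose own mRNA carries short upstream reading frames, so that Gcn4 protein is made mainly when uncharged tRNA activates the kinase Gcn2 and translation initiation is slowed. Pathway regulators act beside it, such as Leu3 on the leucine branch and Lys14 on lysine. Several steps are carried out by paralogous enzymes, among them a mitochondrial and a cytosolic branched-chain aminotransferase, Bat1 and Bat2.

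Total RNA was sequenced with strand information from 16 libraries in 8 groups of 2, described in the design text as biological replicates. Wild-type cells (WT) that were starved and then given cycloheximide, an inhibitor of translation elongation, are set beside WT in glucose with cycloheximide. The others are xrn1 cells starved and in glucose, upf1 cells starved and in glucose, and WT without drug starved and in glucose. All strains are MATa with his3Δ1 leu2Δ0 met15Δ0 ura3Δ0. The mutants are xrn1Δ::kanMX4, without the cytoplasmic 5′-3′ exonuclease Xrn1, and upf1Δ::kanMX4, without the RNA helicase Upf1 of nonsense-mediated decay. Cells in mid-log growth in synthetic complete medium with glucose were moved for 16 min to the same kind of medium with glycerol and ethanol (here starvation) or with glucose. WT cells then received cycloheximide at 100 µg/ml, or DMSO for the cells without drug. The labels name no solvent for mutant cultures and do not say how long the drug was present. Cells with these his3, leu2 and met15 alleles need histidine, leucine and methionine from the medium.

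A level is given as the deposited read density in reads per nucleotide, which is already divided by length and can be compared between genes. It is relative to a spike-in added to a fixed mass of total RNA, not to cells, and in bulk RNA fewer cells with a transcript and less of it per cell cannot be told apart. Libraries held 7.04 to 36.6 reads, in units of 1e6, on reading frames, as recovered from the steps between values. The lowest of the 50 genes in every library, ARG3, had 78.0 to 1677 reads. UPF1 had 0.0093 to 0.0152 reads per nucleotide in upf1 cells, against 0.323 to 0.615 in WT without drug, and XRN1 had 0.0693 to 0.0858 in xrn1 cells, against 0.692 to 1.19 in WT without drug. MET15 was listed at 0 in every library, LEU2 was at most 0.0017 and URA3 at most 0.00715, while HIS3 kept reads of its partly deleted allele. The 4 cycloheximide libraries carry another prefix in the deposited header than the other 12. The labels do not explain it, so in every comparison of cycloheximide with no drug the drug and whatever the prefix marks cannot be told apart.

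TGACTC, the core to which Gcn4 binds, was found on either strand in the window from 250 bases before to 50 after the start codon of 30 of the 50 genes, against 479 of 6001 genes in the RefSeq annotation of build R64 (7.98%). It was present in all 4 histidine genes, all 3 serine genes and both asparagine genes, and in none of the 3 genes of ammonium assimilation. The Leu3 motif, CCGG and CCGG with any 2 bases between them, was found in LEU1 and BAT1 only, against 8 of 6001 windows. TCCNNNGGA, the Lys14 motif, was in 5 of the 50, namely LYS1, LYS9, LYS12, LEU9 and GLT1, against 204 of 6001 (3.40%). The windows of BAT1, BAT2, LEU4 and LEU9 are shown because these paralogues moved apart in starvation. BAT1 lies at chrVIII:517282-517581 on the plus strand, BAT2 at chrX:705494-705793 on the plus strand, LEU4 at chrXIV:426705-427004 on the minus strand and LEU9 at chrXV:522777-523076 on the plus strand. Each is written 5′ to 3′ from the RefSeq genome of build R64, with TGACTC in capitals. BAT1 and LEU4 each hold 1 match, starting 171 and 101 bases before the start codon, and BAT2 and LEU9 hold no match in this window.
BAT1: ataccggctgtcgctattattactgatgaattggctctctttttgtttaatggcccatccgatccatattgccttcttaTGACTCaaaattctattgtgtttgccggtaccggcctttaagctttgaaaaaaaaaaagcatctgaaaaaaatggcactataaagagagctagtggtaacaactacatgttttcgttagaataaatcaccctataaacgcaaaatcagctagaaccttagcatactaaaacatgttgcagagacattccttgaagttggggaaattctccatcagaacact
BAT2: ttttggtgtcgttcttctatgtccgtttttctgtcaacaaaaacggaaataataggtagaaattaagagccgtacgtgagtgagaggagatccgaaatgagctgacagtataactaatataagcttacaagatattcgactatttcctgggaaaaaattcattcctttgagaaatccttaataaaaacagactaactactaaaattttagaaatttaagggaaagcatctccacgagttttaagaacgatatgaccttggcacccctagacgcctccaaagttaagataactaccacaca
LEU4: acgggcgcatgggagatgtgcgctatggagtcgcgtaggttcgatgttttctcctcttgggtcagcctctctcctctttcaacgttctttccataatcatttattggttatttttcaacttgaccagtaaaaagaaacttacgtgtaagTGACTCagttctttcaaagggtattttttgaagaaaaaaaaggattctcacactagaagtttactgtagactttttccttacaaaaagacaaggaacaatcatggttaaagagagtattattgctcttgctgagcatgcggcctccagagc
LEU9: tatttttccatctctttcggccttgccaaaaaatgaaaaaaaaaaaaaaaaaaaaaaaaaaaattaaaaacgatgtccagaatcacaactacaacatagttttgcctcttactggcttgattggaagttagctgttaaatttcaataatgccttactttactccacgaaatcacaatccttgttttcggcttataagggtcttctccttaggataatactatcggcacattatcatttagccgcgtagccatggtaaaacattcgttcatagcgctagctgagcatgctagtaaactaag

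In WT in glucose without drug the 50 genes ran from 0.192 reads per nucleotide for ARG3 (ornithine carbamoyltransferase) to 8.22 for ILV5, with a median of 1.50. ILV5 encodes acetohydroxyacid reductoisomerase, a step shared by isoleucine, valine and leucine synthesis. Most of the genes were abundant mRNAs. Ranked by that level in deciles of the tested protein-coding genes, with decile 10 the highest, 24 lay in decile 10, 15 in decile 9, 7 in decile 8, 3 in decile 7, and ARG3 in decile 5. ILV5 was the highest of the 50 in all 4 glucose groups and in starved xrn1 cells. In the other 3 starved groups the highest was GLN1, glutamine synthetase, the enzyme that fixes ammonium into glutamine. ARG3 was the lowest in all 8 groups.

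The share of reading-frame reads held by the 50 genes does not depend on scaling between libraries. It was 1.45 ± 0.04% in starved WT with cycloheximide and 1.91 ± 0.01% in WT in glucose with cycloheximide (SD, n = 2 in each group). It was 1.79 ± 0.01% in starved xrn1 cells and 1.91 ± 0.02% in xrn1 cells in glucose. In upf1 cells it was 1.97 ± 0.01% in starvation and 2.18 ± 0.01% in glucose, and in WT without drug it was 1.89 ± 0.02% in starvation and 2.17 ± 0.01% in glucose. Both starved libraries lay below both glucose libraries in each of the 4 pairs.

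**Figure D1:**
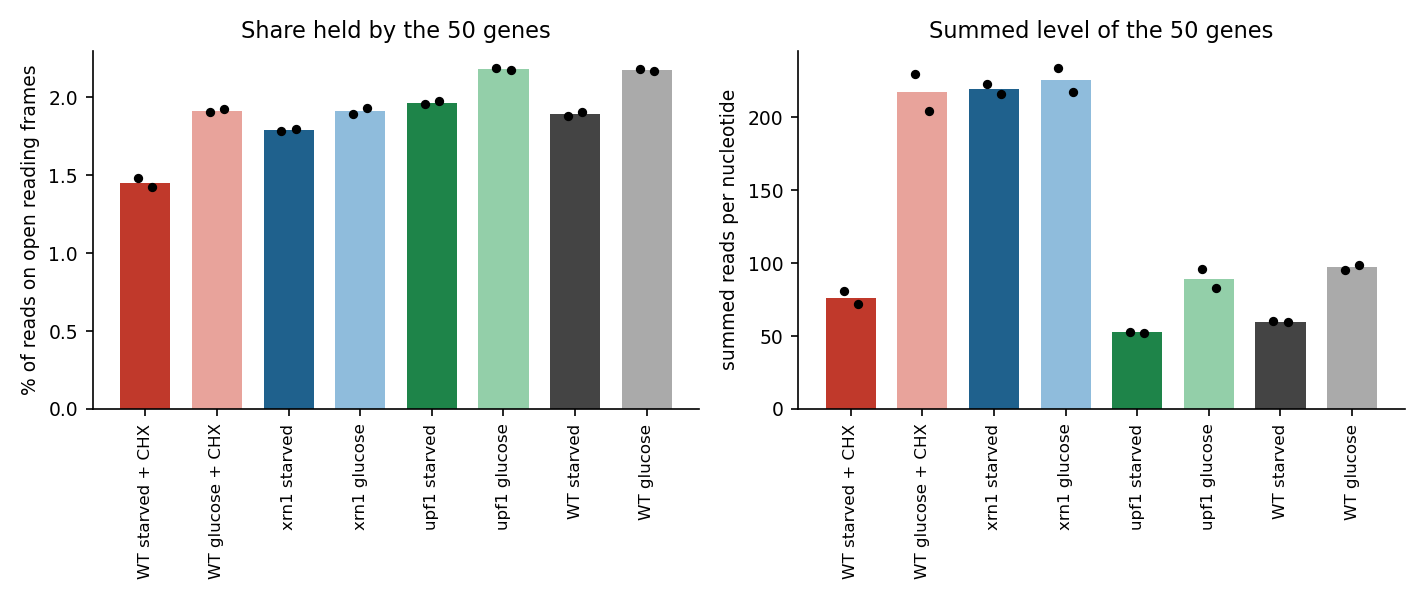
Left, share of reads on reading frames held by the 50 genes (%), and right, their summed level (reads per nucleotide), in each library. Bars are group means and points the 2 libraries. The share is lower in starvation in all 4 pairs, while the summed level is 219 in starved xrn1 cells and 226 in xrn1 cells in glucose.

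Starvation lowered nearly the whole set in WT without drug. Of the 50 genes, 47 fell and 0 rose, and 3 did not pass (limma, Benjamini-Hochberg adjusted p under 0.05 over 11599 features; 48 had an unadjusted p under 0.05 in either direction). Among all features 33.5% fell and 10% rose, and among 5817 protein-coding genes 53.0% fell and 10.7% rose. The median log2 change of the 50 was -0.72, against -0.42 for protein-coding genes. With libraries scaled to the protein-coding genes 36 of the 50 fell and 4 rose (38.0% and 28.3% of protein-coding genes). Scaled to the 76 snoRNAs 7 fell and 1 rose (7.74% and 11.8%). The snoRNA scaling factors differed between replicates, at 0.749 and 0.975 in starved WT. SEs were larger in that fit, such as 0.22 for HIS4 against 0.13 as deposited. A call lost under snoRNA scaling can therefore come from the wider error as well as from a changed value.

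The branched-chain genes held both the deepest fall and some of the smallest. ILV5 (YLR355C) had 2.32 and 2.46 reads per nucleotide in starved cells, against 7.94 and 8.49 in glucose (log2 change -1.78 with an SE of 0.11, limma adjusted p = 1.25e-07). Errors after ± on log2 changes are SEs. The groups stand far apart. ILV5 also fell when scaled to protein-coding genes (-1.42 ± 0.08) and to snoRNAs (-1.38 ± 0.19). ILV1, threonine deaminase at the entry to isoleucine, had 0.802 and 0.822 in starved cells against 1.80 and 1.89 in glucose, and fell by 1.18 ± 0.10 on the log2 scale. ILV2, the catalytic subunit of acetolactate synthase, fell by only 0.24 ± 0.09 as deposited, with 1.53 and 1.49 in starved cells and 1.74 and 1.83 in glucose. It did not pass without any 1 of the 4 libraries (-0.28 to -0.21, adjusted p 0.0836 to 0.201), and its direction turned under both other scalings (0.12 and 0.16). In all, 9 of the 10 branched-chain genes fell, with a median of -0.84.

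Histidine genes split. HIS1, ATP phosphoribosyltransferase and the committed step, had 1.13 and 1.08 in starved cells against 2.53 and 2.46 in glucose, a change of -1.17 ± 0.10 (limma adjusted p = 9.18e-07). HIS7 also fell, by 1.14. HIS4, a single protein that carries out several steps of the pathway, had 2.34 and 2.26 in starved cells against 2.07 and 2.14 in glucose (0.13 ± 0.13, limma adjusted p = 0.462). Both starved libraries of HIS4 lay above both glucose libraries, yet the difference did not pass as deposited. It passed as a rise when scaled to protein-coding genes (0.49 ± 0.05).

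The other genes that did not pass were BAT2, the cytosolic aminotransferase, and GLN1. BAT2 had 0.462 and 0.451 in starved cells and 0.477 and 0.468 in glucose (-0.05 ± 0.14). GLN1 had 3.98 and 3.63 in starved cells against 3.05 and 3.32 in glucose (0.26 ± 0.10, limma adjusted p = 0.0544). GLN1 passed as a rise in the fit of these groups alone (adjusted p = 0.0463) and, in an alternative added after seeing the data, without the 4 cycloheximide libraries (adjusted p = 0.028). The 4 that rose when scaled to protein-coding genes were HIS4, ILV2, BAT2 (0.31) and GLN1 (0.62), and scaled to snoRNAs the 1 that rose was GLN1 (0.66). All 6 arginine, 7 lysine, 7 aromatic, 3 serine, 5 threonine and homoserine, 3 proline and 2 asparagine genes fell as deposited, with medians from -0.54 for the aromatic to -0.82 for the lysine genes among the lists of 3 or more. The smallest fall among them was that of ARO3, a DAHP synthase at the entry to the aromatic pathway (-0.35 ± 0.11). ARO3 did not pass without starved replicate 2 (-0.31, adjusted p = 0.11) or glucose replicate 2 (-0.30, adjusted p = 0.123), and was within 0.05 of 0 under the other scalings.

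**Figure D2:**
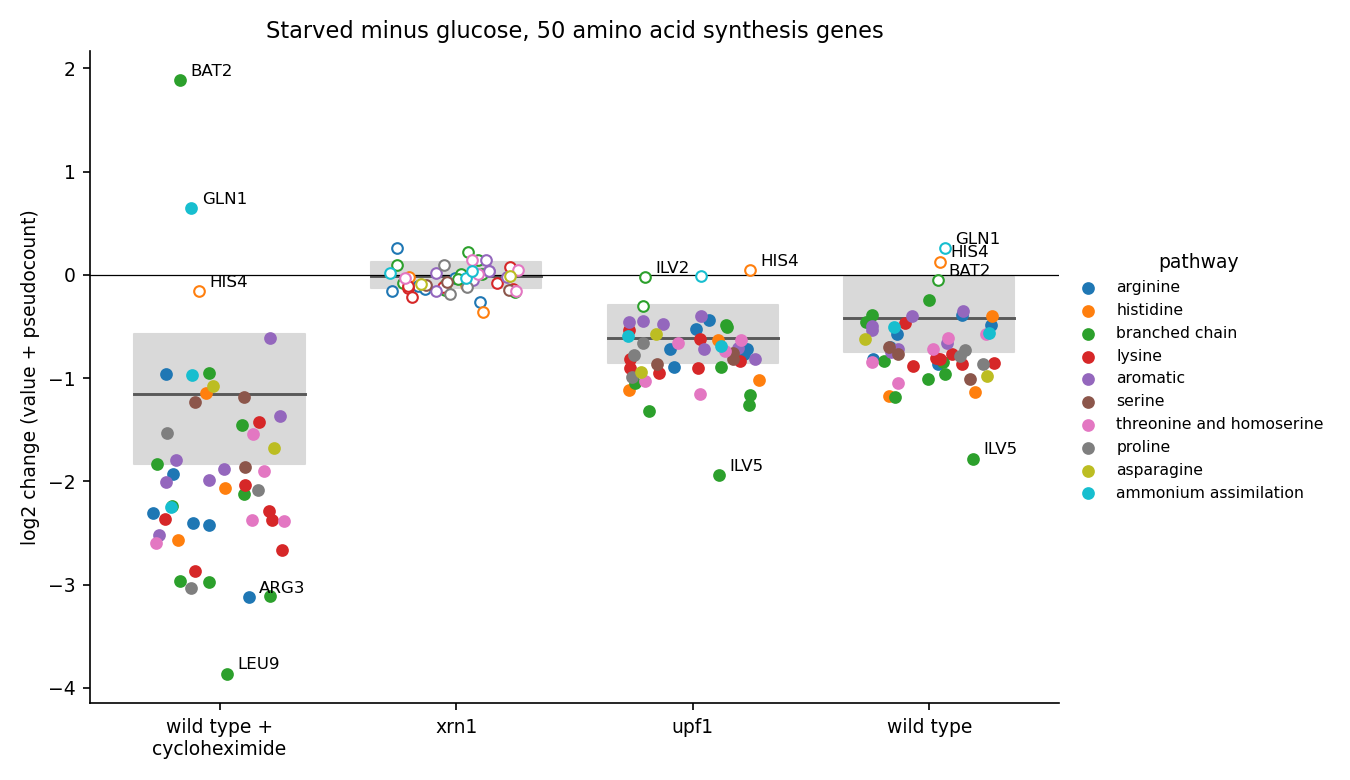
Log2 change, starved minus glucose, of the 50 genes in 4 backgrounds. Filled points passed the test, open points did not, colours give the pathway, and grey bars with a line give the middle 50% and the median of protein-coding genes. In xrn1 cells all points lie near 0, and under cycloheximide they spread from -3.86 (LEU9) to 1.88 (BAT2).

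In WT cells given cycloheximide after the shift of medium, the starved and glucose groups differed more than without drug, and less evenly. This comparison is called starvation under cycloheximide. Here 47 fell, 2 rose and HIS4 alone did not pass, while among protein-coding genes 80.7% fell and 7.89% rose, and among all features 73.7% fell and 6.99% rose. The median of the 50 was -2.02, against -1.16 for protein-coding genes. After protein-coding scaling 39 fell and 7 rose (41.4% and 38.1% of protein-coding genes), and after snoRNA scaling 46 fell and 2 rose (64.6% and 8.60%). All 4 libraries of this comparison share 1 header prefix.

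The deepest fall was that of LEU9 (YOR108W), the minor isopropylmalate synthase of the leucine branch. It had 0.154 and 0.150 reads per nucleotide in starved cells with cycloheximide, against 2.34 and 2.17 in glucose with cycloheximide, a log2 change of -3.86 ± 0.08 (limma adjusted p = 9.00e-13). In starved cells with the drug it lay below all other groups. ARG3 had 0.113 and 0.083 in starved cells against 0.918 and 0.830 in glucose (-3.12 ± 0.16), and ILV5 had 3.13 and 2.41 against 25.4 and 22.2 (-3.11 ± 0.11). PRO1, glutamate 5-kinase at the start of proline synthesis, fell by 3.03.

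BAT2 (YJR148W) went the other way. It had 6.36 and 4.91 in starved cells with cycloheximide, against 1.59 and 1.44 in glucose with cycloheximide, a rise of 1.88 ± 0.14 (limma adjusted p = 6.70e-08). These 2 starved libraries lay above the other 14, which ran from 0.396 to 1.59. GLN1 had 16.6 and 14.3 in starved cells against 10.5 and 9.20 in glucose with the drug (0.64 ± 0.10, limma adjusted p = 5.81e-05). TRP4, anthranilate phosphoribosyltransferase, had the smallest fall that passed (-0.61 ± 0.09), and it rose when scaled to protein-coding genes (0.53 ± 0.05). HIS4 had 3.16 and 2.90 in starved cells and 3.60 and 3.18 in glucose (-0.16 ± 0.13, limma adjusted p = 0.258). HIS4 rose by 0.98 when scaled to protein-coding genes, and LEU4 and GDH1 rose by 0.19 and 0.17. Every arginine, lysine, aromatic, serine, threonine and homoserine, proline and asparagine gene fell as deposited.

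The change of the starvation response with the drug was tested as an interaction. With cycloheximide minus no drug, 44 of the 50 genes had a lower response and 2 a higher one, against 70.7% and 2.56% of protein-coding genes and 61.0% and 2.06% of all features. When scaled to protein-coding genes 33 were lower and 10 higher (30.2% and 25.7% of protein-coding genes), and when scaled to snoRNAs 40 and 1 (56.8% and 1.07%). The lowest were LEU9 (-2.85 ± 0.11) and ARG3 (-2.64 ± 0.22). BAT2 was higher by 1.93 ± 0.20 (limma adjusted p = 5.52e-06), also in both other scalings (2.71 and 1.82). GLN1 was higher by 0.39 ± 0.14 (limma adjusted p = 0.0296). It did not pass when scaled to snoRNAs (0.28, adjusted p = 0.423), nor without replicate 1 of starved WT with cycloheximide or replicate 2 of any of the other 3 groups (0.28 to 0.33, adjusted p 0.101 to 0.12), so that only BAT2 was then higher. In this interaction the drug and the header prefix cannot be told apart.

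In upf1 cells starvation again lowered most of the genes. Of the 50, 46 fell and 0 rose (limma; 46 had an unadjusted p under 0.05), against 69.2% and 5.54% of protein-coding genes and 50.8% and 4.29% of all features. The median was -0.73, against -0.61 for protein-coding genes. Under protein-coding scaling 24 fell and 6 rose (29.3% and 25.1% of protein-coding genes), and under snoRNA scaling 46 fell and 0 rose (64.4% and 3.23%). ILV5 had 1.87 and 1.79 in starved upf1 cells against 7.39 and 6.72 in upf1 cells in glucose (-1.94 ± 0.11, limma adjusted p = 7.66e-08), ILV1 changed by -1.31 ± 0.10 and LEU9 by -1.26 ± 0.08. The 4 that did not pass were HIS4 (0.05), GLN1 (-0.01), ILV2 (-0.02) and BAT2 (-0.30). Without replicate 2 of upf1 in glucose BAT2 fell (-0.53, limma adjusted p = 0.00539). Among the smallest falls that passed were those of ARO3 (-0.40) and TRP3 (-0.45), and both changed sign when scaled to protein-coding genes (0.18 and 0.13). Without replicate 1 of upf1 in glucose ARO3 did not pass (-0.34, adjusted p = 0.0618) and HIS4 rose (0.28, adjusted p = 0.0476). No gene of the 50 passed the test of the difference between the upf1 and WT responses (limma; 1 at an unadjusted p under 0.05, against 0.0948% of all features higher and 4.81% lower). Of protein-coding genes 0.0516% were higher and 4.11% lower. The median difference was -0.05. In the fit scaled to protein-coding genes 7 were higher in upf1, from 0.26 for ASN1 to 0.44 for ILV2 (4.45% of protein-coding genes higher and 6.03% lower). In the one scaled to snoRNAs 0 were (0% and 14.9%).

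In xrn1 cells no gene of the set passed in starvation. Of the 50, 0 rose and 0 fell (limma; 4 had an unadjusted p under 0.05), against 2.80% and 0.233% of all features and 4.01% and 0.0860% of protein-coding genes. Their log2 changes ran from -0.36 for HIS7 to 0.26, with a median of -0.05. ILV5 had 31.6 and 30.4 in starved xrn1 cells, against 35.5 and 33.1 in xrn1 cells in glucose (-0.14 ± 0.11). HIS7 alone fell (-0.36) and 1 gene rose when scaled to protein-coding genes (4.83% and 9.70% of protein-coding genes). None passed when scaled to snoRNAs (0% falling and 1.38% rising).

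Set against WT, the response in xrn1 cells was higher for 42 genes and lower for 0 in the interaction test, with 45 at an unadjusted p under 0.05. The corresponding shares were 35.5% and 4.04% of protein-coding genes, and 20.3% and 3.37% of all features. ILV5 differed by 1.64 ± 0.16 (limma adjusted p = 3.05e-05) and ILV1 by 1.10 ± 0.15 (adjusted p = 0.00024). The smallest differences that passed were those of LEU1, isopropylmalate isomerase (0.46 ± 0.14), and ARO4, the second DAHP synthase (0.51 ± 0.10). LEU1 passed only in the full set of libraries and without replicate 1 of WT or of xrn1 in glucose. Without any other library of the comparison it was 0.40 to 0.49 (adjusted p 0.058 to 0.111). By protein-coding scaling 28 were higher and 3, HIS4, ILV2 and GLN1, were lower (23.4% and 18.2% of protein-coding genes). Scaled to snoRNAs ILV5 alone passed (1.08 ± 0.27, adjusted p = 0.0447; 0.241% of protein-coding genes were higher and 2.78% lower), and LEU1 and ARO4 changed sign. Neither LEU1 (0.094, adjusted p = 0.486) nor ARO4 (0.14, adjusted p = 0.44) passed when scaled to protein-coding genes.

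**Figure D3:**
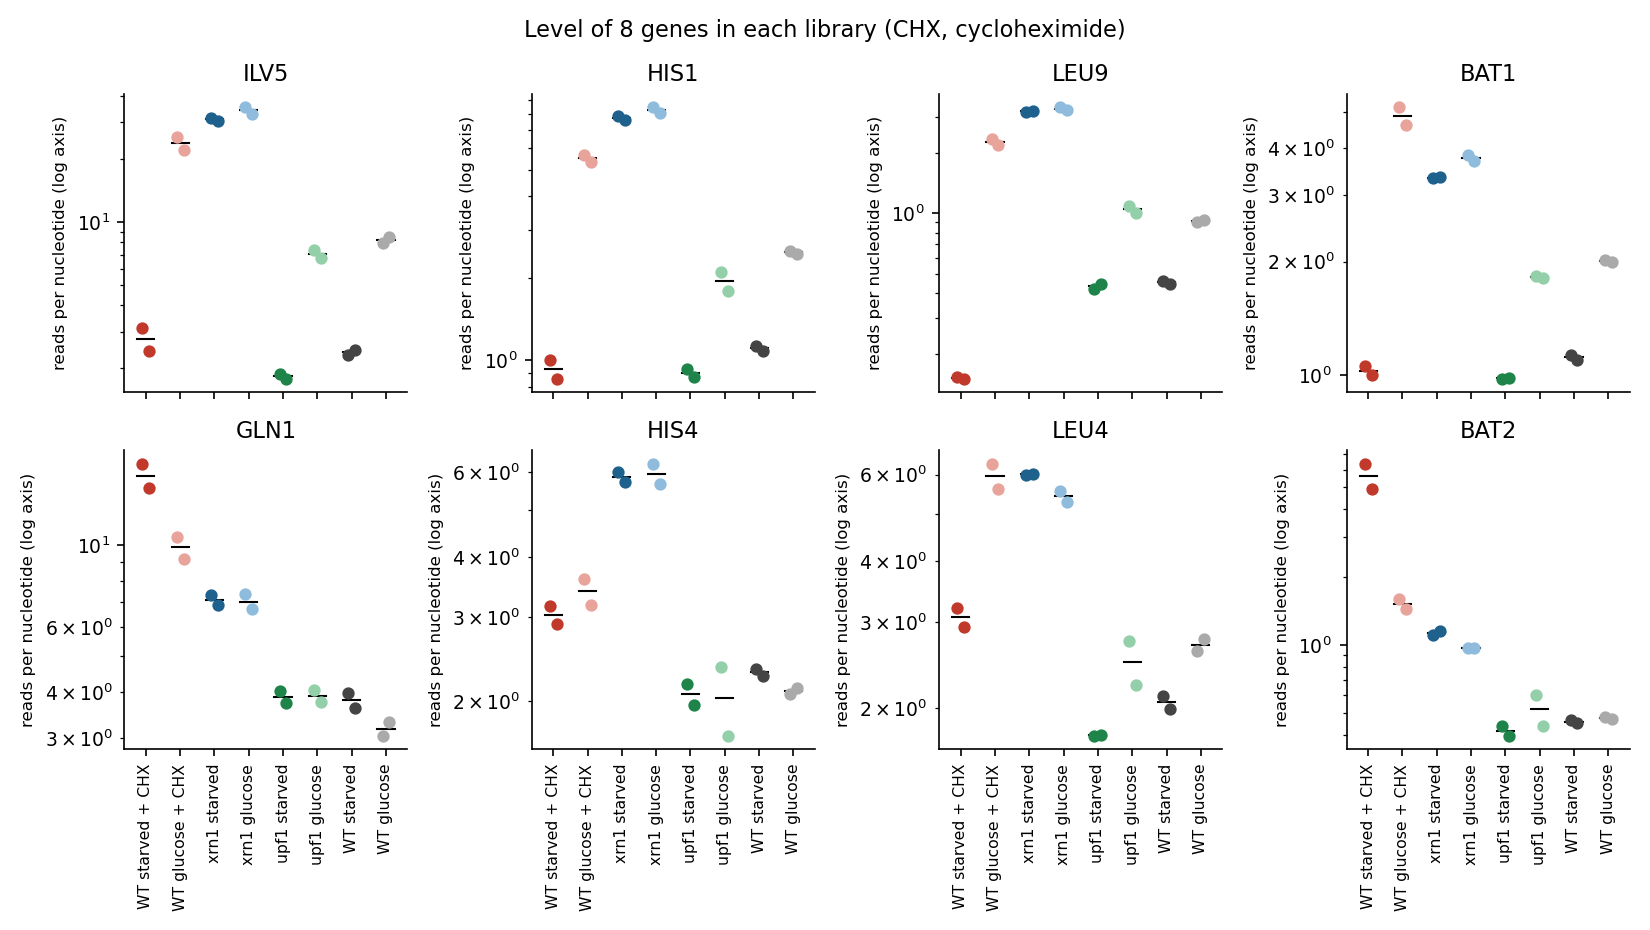
Level of 8 genes in each library (reads per nucleotide, log axis); points are libraries and lines group means. The group means of ILV5, HIS1, LEU9 and BAT1 are lower in starvation in every background. The 2 media lie closest together in xrn1 cells, where none of these differences passed. GLN1 and BAT2 are highest in starved WT with cycloheximide.

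Cycloheximide in glucose raised all 50 genes as deposited, as it did 98.8% of protein-coding genes and 91.3% of all features, of which 0.0516% and 0.836% fell. The median rise was 1.29, against 2.05 for protein-coding genes, and 48 of the 50 lay below that median. With protein-coding scaling 43 fell and 0 rose (33.6% and 38.0% of protein-coding genes), and with snoRNA scaling 50 rose (99.2%, with 0.0516% falling). The drug and the header prefix cannot be told apart in either medium. Among the pathways arginine genes had the highest median, 1.98. ARG8, acetylornithine aminotransferase, had 1.54 and 1.32 with cycloheximide, against 0.304 and 0.320 without drug (2.18 ± 0.11, limma adjusted p = 9.22e-10). ARG3 rose by 2.16 ± 0.16 and HIS7 by 2.05 ± 0.12. These 3 were at 0.15, 0.15 and 0.02 when scaled to protein-coding genes, and none of them passed. ARG1, argininosuccinate synthetase, rose by only 0.37 ± 0.09, so that arginine genes lay both near the top and near the bottom of the range. The threonine and homoserine genes had the lowest median of the lists of 3 or more (0.72), with THR1, homoserine kinase, at 0.34 ± 0.08. ILV6, the regulatory subunit of acetolactate synthase, had 4.69 and 3.97 with cycloheximide against 3.70 and 3.76 without drug (0.21 ± 0.09, limma adjusted p = 0.0414). It did not pass without replicate 1 with cycloheximide (0.09, adjusted p = 0.363), or without either library without drug (0.20 and 0.22, adjusted p = 0.131 and 0.0956). ILV6, THR1 and ARG1 were at -1.82, -1.70 and -1.66 when scaled to protein-coding genes.

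In starvation, cycloheximide split the genes. Of the 50, 18 were higher and 19 lower with the drug, against 80.3% and 10.2% of protein-coding genes and 65.8% and 8.32% of all features. The median was -0.13, against 1.31 for protein-coding genes. On the protein-coding scaling 3 were higher and 46 lower (42.7% and 35.7% of protein-coding genes), and on the snoRNA scaling 18 and 6 (80.7% and 6.10%). BAT2 had 6.36 and 4.91 with cycloheximide, against 0.462 and 0.451 without (3.60 ± 0.14, limma adjusted p = 1.69e-09). GLN1 had 16.6 and 14.3 against 3.98 and 3.63 (2.02 ± 0.10), and TRP4 had 1.49 and 1.37 against 0.487 and 0.475 (1.56 ± 0.09). These 3 were the ones that rose when scaled to protein-coding genes. LEU9 was lower, with 0.154 and 0.150 against 0.462 and 0.445 (-1.56 ± 0.08), as were ILV3, dihydroxyacid dehydratase (-1.24 ± 0.08), and ARG1 (-1.23 ± 0.09). All 5 threonine and homoserine genes were lower, also when scaled to protein-coding genes, while 1 was when scaled to snoRNAs. All 3 serine genes were higher (median 0.97, under the 1.31 of protein-coding genes), and all 3 were lower when scaled to protein-coding genes (median -0.28). In the branched-chain list 2 were higher, BAT2 and LEU4, and 5 were lower. The drug and deletion comparisons share WT libraries without drug with each other and with starvation in WT.

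**Figure D4:**
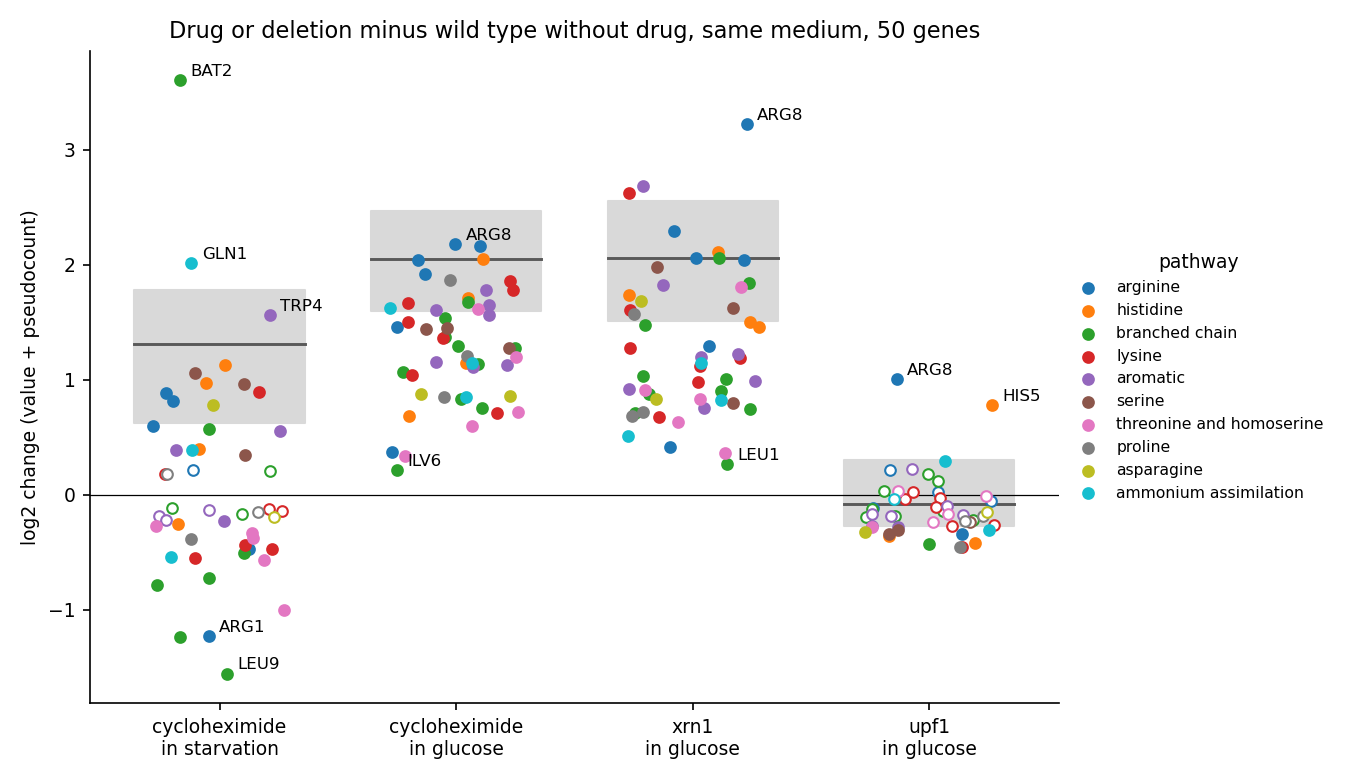
Log2 change of the 50 genes with cycloheximide (in starvation and in glucose) and in xrn1 and upf1 cells in glucose, each minus WT without drug in the same medium. Symbols and grey bars are as in the plot of starvation changes. Most of the 50 genes lie below the line of protein-coding genes in every column, numbering 47, 48, 43 and 33 from left to right.

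Loss of Xrn1 in glucose also raised all 50 genes as deposited, against 97.6% of protein-coding genes and 90.6% of all features, of which 0.241% and 0.483% fell. The median was 1.16, against 2.06 for protein-coding genes, and 43 genes lay below that median. When protein-coding genes set the scale 41 fell and 4 rose (36.3% and 38.5% of protein-coding genes), and when snoRNAs did 49 rose and 0 fell (97.2% and 0.155%). ARG8 had 3.13 and 2.78 in xrn1 cells, against 0.304 and 0.320 in WT, a change of 3.23 ± 0.11 (limma adjusted p = 4.44e-11). TRP3, a bifunctional enzyme of tryptophan synthesis, had 4.54 and 4.18 against 0.669 and 0.680 (2.68 ± 0.09). LYS1, saccharopine dehydrogenase at the last step of lysine synthesis, had 2.54 and 2.17 against 0.361 and 0.395 (2.63 ± 0.10). With ARG5,6 (0.24), these 3 were the genes that rose when scaled to protein-coding genes, ARG8 by 1.17, TRP3 by 0.62 and LYS1 by 0.57. At the low end LEU1 had 2.61 and 2.52 in xrn1 cells against 2.04 and 2.23 in WT (0.26 ± 0.10, limma adjusted p = 0.0195). It did not pass without replicate 1 of xrn1 (0.24, adjusted p = 0.0874) or of WT (0.20, adjusted p = 0.141). HOM6, homoserine dehydrogenase, rose by 0.36 ± 0.07 and ARG1 by 0.42 ± 0.09. LEU1, HOM6 and ARG1 were at -1.80, -1.71 and -1.65 when scaled to protein-coding genes.

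Loss of Upf1 in glucose gave more falls than rises as deposited, but the counts varied with the scaling and with single libraries. Of the 50, 3 rose and 13 fell, against 20.7% and 18.4% of protein-coding genes and 32.0% and 9.97% of all features. The median was -0.17, against -0.08 for protein-coding genes. The rise of ARG8 was clear, with 0.637 and 0.626 in upf1 cells against 0.304 and 0.320 in WT (1.01 ± 0.11, limma adjusted p = 8.25e-06). HIS5, histidinol-phosphate aminotransferase, had 1.45 and 1.24 against 0.782 and 0.774 (0.78 ± 0.11, adjusted p = 0.000112). GLN1 had 4.06 and 3.75 against 3.05 and 3.32 (0.29 ± 0.10, adjusted p = 0.0319), and did not pass without upf1 replicate 1 (0.24, adjusted p = 0.138) or either WT library (0.23 and 0.35, adjusted p = 0.186 and 0.0529). ARG8 and HIS5 rose under all 3 scalings. The falls were small. LYS20, homocitrate synthase, had 0.916 and 0.837 in upf1 cells against 1.21 and 1.19 in WT (-0.46 ± 0.09), PRO1 changed by -0.46 ± 0.11 and ILV2 by -0.43 ± 0.09. None of these 3 passed when scaled to snoRNAs (adjusted p 0.194 to 0.276), and PRO1 did not pass in the fit of the 2 groups alone (adjusted p = 0.0605). The fit scaled to protein-coding genes gave 33 falls and 4 rises (45.1% and 23.0% of protein-coding genes), and the one scaled to snoRNAs gave 0 falls and 2 rises (1.63% and 15.8%). A fit of these 2 groups alone found 2 falls, LYS20 and ILV2, and GLN1 did not pass in it (adjusted p = 0.0759). Without upf1 replicate 1 there were 24 falls, without upf1 replicate 2 there were 4 falls and 5 rises, and without WT replicate 1 or 2 there were 6 or 4 falls.

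Abundant mRNAs changed differently from rare ones among the tested protein-coding genes, so the 50 genes were set beside genes of like level. The deciles include the 50 genes themselves. They are ranked on the WT libraries in glucose without drug. Those libraries are also the base of the changes for starvation in WT and for cycloheximide, xrn1 and upf1 in glucose, so level and change share their error. Over protein-coding genes the median change with cycloheximide in glucose was 2.34 in decile 1 and 1.11 in decile 10. In decile 10 of WT glucose levels the median change with cycloheximide in glucose was 0.97 for the 24 genes of the set, against those 1.11 for all 582 protein-coding genes there. In the xrn1 comparison it was 0.83 against 1.04, for starvation in WT -0.71 against -0.75, and for starvation under cycloheximide -1.89 against -2.01. For cycloheximide in starvation it was -0.23 against -0.22. In decile 9 the 15 genes of the set lay further from their neighbours, at -2.29 against -1.21 for starvation under cycloheximide and -0.13 against 0.79 for cycloheximide in starvation. Set against the protein-coding median of its own decile, the gene was lower in 31 of 50 cases for starvation in WT and in 30 under cycloheximide. It was lower in 26 for starvation in upf1 cells and in 36 for starvation in xrn1 cells. For cycloheximide it was lower in 28 in glucose and in 32 in starvation. For the deletions in glucose it was lower in 33 for xrn1 and in 20 for upf1.

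The ratio of 2 paralogues within a library is free of any scaling between libraries, and 5 pairs were compared. BAT1 had 1.06 and 1.00 in starved WT with cycloheximide against 5.14 and 4.61 in glucose with the drug, so the ratio of BAT1 to BAT2 was 0.166 and 0.204 in the starved cells and 3.23 and 3.21 in glucose. Without drug the ratio was 2.45 and 2.44 in starved WT and 4.25 and 4.27 in WT in glucose. The mitochondrial gene was thus the more abundant in 14 libraries and the cytosolic gene in the 2 starved libraries with cycloheximide. Over the 4 backgrounds the log2 ratio changed by -1.48 in starvation. An exact two-sided permutation test within backgrounds gave p = 0.00154, the smallest the 1296 relabellings allow, and 0.00386 after adjustment over 5 pairs. The background changes were -4.13 with cycloheximide, -0.39 in xrn1, -0.58 in upf1 and -0.80 in WT without drug.

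LEU4, the major isopropylmalate synthase, gained on LEU9. The ratio of LEU4 to LEU9 was 20.9 and 19.6 in starved WT with cycloheximide against 2.69 and 2.58 in glucose with the drug, and 4.58 and 4.49 in starved WT without drug against 2.89 and 2.99 in glucose. The log2 ratio rose by 1.13 over the backgrounds (exact permutation p = 0.00154, adjusted 0.00386), by 2.94 with cycloheximide, 0.19 in xrn1, 0.78 in upf1 and 0.63 in WT. The pairs of DAHP synthases and homocitrate synthases moved less, by 0.18 for ARO3 to ARO4 and -0.12 for LYS20 to LYS21 (exact permutation p = 0.00926 and adjusted p = 0.0116 for each). ARO3 to ARO4 changed by 0.52 with cycloheximide, 0.02 in xrn1, 0.06 in upf1 and 0.15 in WT, and LYS20 to LYS21 by -0.02, -0.08, -0.29 and -0.10 in the same order. Neither call held in every test that left out a background (exact permutation, adjusted p 0.0556 to 0.0694 where lost). The asparagine synthetases had no common direction. ASN1 to ASN2 changed by -0.05 over the backgrounds (exact permutation p = 0.617), by 0.59 with cycloheximide, -0.07 in xrn1, -0.37 in upf1 and -0.36 in WT. LYS20 and LYS21, and ASN1 and ASN2, are close paralogues, and how reads shared between them were counted is not given in the sources used here.

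**Figure D5:**
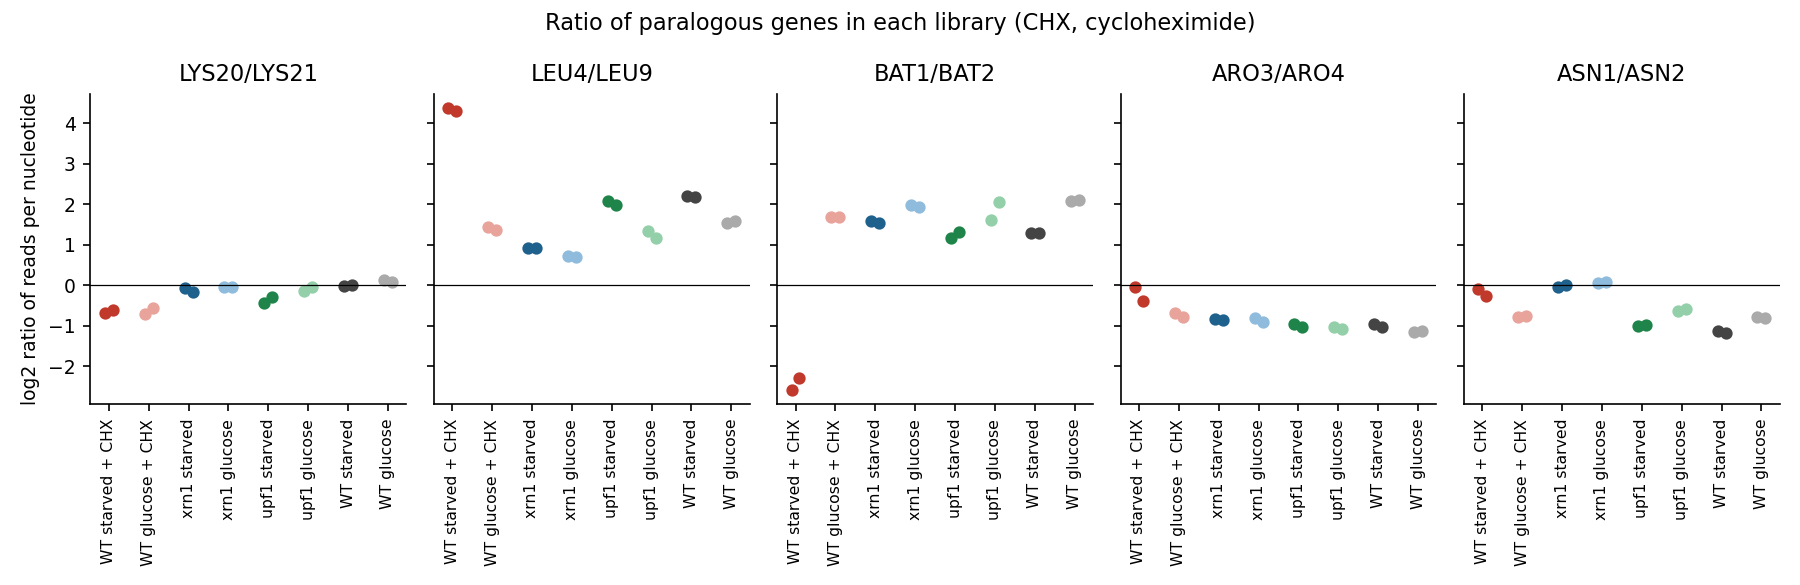
Log2 ratio of the levels of 5 paralogous pairs in each library, 1 point per library. BAT1/BAT2 is below 0 only in starved WT with cycloheximide, the group in which LEU4/LEU9 is highest.

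Genes with and without TGACTC in the window overlapped in their range of changes in each of the 8 comparisons. For starvation in WT the median was -0.78 for the 30 genes with it and -0.57 for the 20 without. Under cycloheximide the medians were -1.96 and -2.08, and in xrn1 cells in glucose 1.25 and 1.08. For cycloheximide in starvation they were 0.19 and -0.33, both under the 1.31 of protein-coding genes. The difference between genes with and without the motif was not tested. In starvation under cycloheximide 18 of the 20 genes without a match fell and 2, BAT2 and GLN1, rose. LEU9 and ARG3, with the deepest falls there, also had no match. Of the 30 genes with a match 29 fell and 0 rose.

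The mRNA of GCN4 itself was also lower in starved WT, with and without cycloheximide, and in starved upf1 cells. It had 2.82 and 2.78 reads per nucleotide in starved WT against 4.40 and 4.48 in glucose (-0.66 ± 0.08, limma adjusted p = 1.99e-05). It fell by 1.18 under cycloheximide and by 0.87 in upf1 cells, and the change in xrn1 cells was -0.09 ± 0.08. It rose by 1.45 with cycloheximide in glucose and by 1.96 in xrn1 cells in glucose, under the protein-coding medians of 2.05 and 2.06. With cycloheximide in starvation it was higher by 0.93, where the median was -0.13 for the 50 genes and 1.31 for protein-coding genes. Its changes scaled to protein-coding genes were -0.30 in starved WT and -0.04 in starvation under cycloheximide, which did not pass, and -0.58 with cycloheximide in glucose. Among 16 regulators of amino acid synthesis, 10 fell and 0 rose in starved WT, against 53.0% and 10.7% of protein-coding genes, and their median was -0.48. Their deepest fall was that of BAS1, an activator of histidine and purine genes (-1.21 ± 0.15). Their counts were 7 falls and 3 rises when scaled to protein-coding genes (38.0% and 28.3% of protein-coding genes). Under cycloheximide all 16 fell in starvation, against 80.7% of protein-coding genes (median -1.47, BAS1 -3.74 ± 0.15). When scaled to protein-coding genes 9 of them fell and 2 rose (41.4% and 38.1% of protein-coding genes). In starved xrn1 cells 0 of the 16 changed as deposited, where 0.0860% of protein-coding genes fell and 4.01% rose.

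Of 23 other genes of amino acid synthesis, 17 fell and 2 rose in starved WT, with a median of -0.59, against 53.0% and 10.7% of protein-coding genes. With protein-coding scaling the counts were 12 and 6 (38.0% and 28.3% of protein-coding genes). AAT1, mitochondrial aspartate aminotransferase, fell by 1.12 ± 0.08. The 2 that rose were ARO9, an aromatic aminotransferase (0.95 ± 0.12), and GDH3, an NADP-dependent glutamate dehydrogenase (0.60 ± 0.17). In starvation under cycloheximide 18 fell and 3 rose, with ARO9 and GDH3 among the rises, against 80.7% and 7.89% of protein-coding genes. After protein-coding scaling 11 fell and 6 rose (41.4% and 38.1% of protein-coding genes). The largest rise was that of ALT1, alanine aminotransferase, with 5.09 and 4.46 in starved cells against 2.17 and 1.87 in glucose with the drug (1.24 ± 0.11, limma adjusted p = 2.57e-07). In upf1 cells in glucose 4 of the 23 rose and 2 fell, against 20.7% and 18.4% of protein-coding genes. With protein-coding scaling 4 rose and 11 fell (23.0% and 45.1% of protein-coding genes). CPA1, the small subunit of carbamoyl phosphate synthetase, whose mRNA carries an upstream reading frame, had 1.19 and 1.18 in upf1 cells against 0.473 and 0.512 in WT (1.27 ± 0.10, limma adjusted p = 8.00e-07).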

How the data were processed

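RNA was extracted with hot phenol, and 1 µg of total RNA with ERCC spike-ins was depleted of rRNA and made into stranded TruSeq libraries, per the labels' protocols. Trim Galore, HISAT2 2.2.0, featureCounts 2.0.0, DESeq2 and build R64 appear in the submitters' processing notes, with no role stated there. The authors deposited a table of 12089 rows holding normalized signal, read coverage per nucleotide, which is scaled to the spike-ins as far as the values show. Its 8 columns of group means were not used.

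Values were tested as log2(value + 0.00369), the 5th percentile of positive values, with limma 3.58.1 in R 4.3.3 (trended variance, 1 mean per group, 16 libraries). Features whose mean was under that pseudocount were left out, and p-values were adjusted by the Benjamini-Hochberg method over 11599 features. A gene passed at an adjusted p under 0.05. A fold change on this scale understates the change of low genes. For 64.8 to 89.3% of low reading frames the recovered reads were whole within 0.02, so no count test was run. Read numbers given are therefore estimates, and the pseudocount corresponds to 1.94 to 14.0 reads per kb.

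The 50 genes, the gene lists, tests and alternatives were chosen with earlier results of these data known. Per comparison the text names the 3 genes that passed with the highest and the 3 with the lowest change and with groups that do not overlap (2 each way, without the condition on overlap, for differences of responses), the paralogue pairs, GCN4, the deleted and marker genes, and up to 2 genes of each other list. A gene that this rule picks is not reported here by name. Further genes named, such as HIS4, were chosen after their values were seen. Alternatives were other scalings, pseudocounts, no filter, fits of the compared groups alone, a replicate block, and leaving out each library. Leaving out the cycloheximide libraries was added after seeing the data. In simulated data for starvation in WT (11599 features, with 67, 67 and 66 changed by 0.5, 1 and 2 on the log2 scale), 16.4%, 64.2% and 87.9% of these were recovered, and 6 of 118 calls were false. No overlap with another annotated gene was found for the 50 genes.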

Additional observations from a re-analysis of the deposited data

Results flagged for a closer look

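The starvation response, starved minus glucose, was compared between backgrounds by a test of the difference itself. The 8 genes given here had the 2 highest and 2 lowest differences that passed in xrn1 and with cycloheximide. They were not the only ones to pass. Of the 50 genes, 42 passed as higher in xrn1, and 44 as lower and 2 as higher with cycloheximide. In xrn1 cells minus WT the response was higher by 1.64 ± 0.16 on the log2 scale for ILV5, by 1.1 ± 0.15 for ILV1, by 0.51 ± 0.10 for ARO4 and by 0.46 ± 0.14 for LEU1. Scaled to snoRNAs, ILV5 alone of these passed, and scaled to protein-coding genes ARO4 (0.14, adjusted p = 0.44) and LEU1 (0.094, adjusted p = 0.486) did not. With cycloheximide minus no drug the difference was -2.85 ± 0.11 for LEU9, -2.64 ± 0.22 for ARG3, 0.39 ± 0.14 for GLN1 and 1.93 ± 0.20 for BAT2. In the last 4 the drug and the header prefix of its libraries cannot be told apart.

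The log2 ratio of ASN1 to ASN2 was higher in starvation by 0.59 in WT with cycloheximide, in both libraries, and lower by 0.36 in WT without drug, in both libraries. That difference between backgrounds was not tested.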

How the results depend on the processing

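Scaling between libraries moved the counts most, and SEs were wider under the snoRNA scaling. Scaled to protein-coding genes, rises and falls among the 50 numbered 4 and 36 for starvation in WT, 7 and 39 under cycloheximide, 6 and 24 in upf1 and 1 and 1 in xrn1. They numbered 0 and 43 for cycloheximide in glucose, 3 and 46 for cycloheximide in starvation, 4 and 33 for upf1 in glucose and 4 and 41 for xrn1 in glucose. For the differences of responses 7 rose in upf1, 28 rose and 3 fell in xrn1, and 10 rose and 33 fell with cycloheximide. Scaled to snoRNAs, starvation in WT had 1 rise and 7 falls, cycloheximide in starvation 6 falls, upf1 in glucose 0 falls (limma), the xrn1 difference 1 rise and the cycloheximide difference 1 rise. In the fit of the compared groups alone, starvation in WT had 1 rise, starvation in xrn1 1 fall, upf1 in glucose 2 falls and the cycloheximide difference 1 rise. Without the cycloheximide libraries, an alternative added after seeing the data, starvation in WT had 1 rise.

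Among the genes named 15 values changed sign, 11 of them when scaled to protein-coding genes and 4 to snoRNAs. Scaled to protein-coding genes these were, for starvation in WT, ARO3 0.010 and ILV2 0.12, under cycloheximide TRP4 0.53, and in upf1 TRP3 0.13 and ARO3 0.18. In glucose they were ILV6 -1.82, THR1 -1.70 and ARG1 -1.66 with cycloheximide, and LEU1 -1.80, HOM6 -1.71 and ARG1 -1.65 in xrn1. Scaled to snoRNAs they were ARO3 0.049 and ILV2 0.16 for starvation in WT, and LEU1 -0.090 and ARO4 -0.044 for the xrn1 difference. Why these values changed sign was not tested. No named gene that passed as deposited lost its call with another pseudocount, without the filter, with the block or without the cycloheximide libraries. In the fit of the compared groups alone ILV6 with cycloheximide in glucose, PRO1 and GLN1 in upf1 in glucose and GLN1 in the cycloheximide difference did. Of genes that did not pass, GLN1 rose in starved WT with the block (limma adjusted p = 0.0151), without the cycloheximide libraries and in the compared groups alone, and BAT2 fell in starved upf1 with the block (-0.30, limma adjusted p = 0.0441).

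Leaving out single libraries gave 42 to 46 falls for starvation in WT, 44 to 47 falls and 0 to 1 rises in upf1, and 15 to 22 rises and 15 to 21 falls for cycloheximide in starvation. It gave 2 to 5 rises and 4 to 24 falls for upf1 in glucose, 31 to 41 rises for the xrn1 difference, and 1 to 2 rises and 43 to 45 falls for the cycloheximide difference.

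Of the ratios, ARO3 to ARO4 was 0.073 without the cycloheximide libraries (exact permutation, adjusted p = 0.0556) and 0.20 without WT without drug (adjusted p = 0.0694). LYS20 to LYS21 was -0.066 without upf1 and -0.13 without WT without drug (exact permutation, adjusted p = 0.0694 for each). ASN1 to ASN2 was -0.27 without cycloheximide (exact permutation, adjusted p = 0.0116), 0.052 without upf1 and 0.050 without WT without drug. BAT1 to BAT2 and LEU4 to LEU9 kept their direction and their call in each of these settings.

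The deviations of replicate 1 from its group mean correlated between the compared groups at -0.054 to 0.082. These values show no pairing by replicate number, and they cannot show that the samples were unpaired. With the replicate number as a block, starvation in WT had 1 rise and upf1 in glucose 5 rises. With 2 libraries per group, small changes are poorly resolved, as the simulated data show.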
